A study of Mus musculus with 8 samples.

Results

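The Zfp genes are the mouse genes whose symbol is Zfp followed by a number, most of which encode proteins with C2H2 zinc fingers. Here they were followed in YTHDF3 RIP-seq of mouse embryonic fibroblasts (MEFs), as the peaks whose deposited gene name is such a symbol, leaving out Zfp36, an RNA-binding protein of another finger type. This rule took 1542 of the 87940 peaks in 4 lists, namely 328 and 374 in the normal lists and 443 and 397 in the starved lists (replicate 1 before replicate 2, as in all lists of values that follow). Of these, 1534 passed the enrichment used to define targets, an IP/input ratio of at least 2 and p below 0.0001, and they made up between 1.60 and 1.91% of all kept peaks of a list. They carried the names of 174 genes, of which 172 are among the 364 protein-coding Zfp genes of the GENCODE annotation.

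A C2H2 finger is a short fold held by 2 cysteines and 2 histidines around a zinc ion, and rows of such fingers read DNA sequence. The fingers of a row are joined by a short conserved linker, and a row is usually encoded by a single, final exon. Many of these proteins also carry a KRAB box, which recruits the co-repressor Trim28 and with it the histone methyltransferase Setdb1, and such proteins silence transposable elements and some imprinted genes. YTHDF3 is a cytoplasmic protein that binds mRNA carrying N6-methyladenosine (m6A), which is placed in a sequence context that often reads GGAC.

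The cells were wild-type C57BL/6 MEFs from embryos of 13.5 days, used at passages 5 to 6. They were kept in normal medium or in nutrient-deprived medium for 2 h, with 2 replicates of each, and RNA bound by YTHDF3 (IP) and the input RNA were sequenced. Each of the 4 lists sets 1 IP library against 1 input library, taken here as the input of the same condition and number. The study states for its cell culture work in general that it was done on separate days, but which embryos or cultures gave the replicates of these libraries is not given in the sources used here, so that p-values measure the spread between these samples, which may in part be technical.

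The 4 IP libraries had from 8818619 to 19271667 reads in kept peaks and the inputs from 2507434 to 5157523, and the starved lists were the deeper in IP reads. A Zfp peak held a median of 68.0, 74.0, 87.5 and 95 IP reads and of 15, 25, 10 and 23 input reads. Because the inputs were thin, 24.8, 18.6, 36.2 and 23.5% of Zfp peaks had 3 or fewer input reads. Their folds were computed against 3 reads and are lower bounds where fewer than 3 were counted. Of 14 fibroblast markers 8 had a kept peak (Col1a2, Col3a1, Col5a2, Fn1, Pdgfra, Pdgfrb, Prrx1 and Thy1), 3 of them in every list. The lists held 5, 6, 6 and 5 of these markers, and Col1a1, Vim, Dcn, Lum, Postn and Twist1 had no peak. Of 5 epithelial markers 1 had a kept peak (Krt19, 18 IP reads in 1 list), of 3 endothelial markers 1 (Kdr, 29 to 89 IP reads in each list) and of 3 blood markers 0. A marker with no peak in such a list is not shown to be absent from the cells.

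The first question was which Zfp transcripts were bound, and how steadily. Of the 174 genes, 78 had a kept peak in every list (44.8%, beside 42.9% of all 8612 genes with a peak), 29 in 3 lists, 24 in 2 and 43 in a single list. Zfp peaks held 0.808 and 0.740% of the IP reads in kept peaks in the normal lists and 1.18 and 0.901% in the starved lists. Of the 71249, 106575, 184903 and 173600 IP reads in Zfp peaks, Zfp703 held 11339, 11247, 39002 and 30426. Zfp503 held 5442, 5027, 21745 and 15820. Input reads in Zfp peaks were 19265, 36063, 27588 and 38233, of 2634685, 5157523, 2507434 and 4475345 in kept peaks. A change of these shares with the medium was not tested. Genes with a peak numbered 107 and 116 in the normal lists and 142 and 125 in the starved lists. Those found in both starved lists and in neither normal list were 9, and those found in both normal lists alone were 3, where the same patterns held for 4.32% and 1.11% of all genes. The patterns that follow the replicate number in place of the medium held 3 and 4 Zfp genes. The share of all genes with these patterns was not computed, so the counts are not to be set against those of the media. Chromosome 7, which bears large clusters of zinc finger genes, held 51 of the 174.

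A peak is named for the gene with the nearest transcription start, which need not be the gene it lies in, and Zfp genes sit close together. Peaks were therefore also set against the exons of the named gene, and 150 of the 174 genes had a kept peak over an exon of their own while 24 had none. The share of Zfp peaks over an own exon was 78.0% ± 1.29 (SD, n = 4 lists), against 55.2% ± 2.00 for the peaks of all other genes. The difference was 22.9 percentage points and was positive in 4 of 4 lists (exact sign-flip permutation p = 0.125, which is the smallest that 4 lists allow, 2-sided). The Zbtb, Zscan and Zkscan genes, other families with C2H2 fingers, had 80.6% ± 1.01, above Zfp in 4 of 4 lists (exact permutation p = 0.125).

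By the deposited annotation, 660 of the 1534 Zfp peaks lay in exons (43.0%, in 122 genes), 253 in 3′ UTRs (16.5%), 238 in introns (15.5%), 120 at promoters and transcription starts (7.82%), 107 in 5′ UTRs (6.98%), 98 between genes (6.39%), 44 at transcription ends (2.87%) and 14 in non-coding transcripts (0.913%). The corresponding shares of all other peaks were 47.8% in exons, 14.3% in 3′ UTRs, 19.9% in introns, 5.69% at promoters, 4.19% in 5′ UTRs, 3.34% between genes, 2.74% at transcription ends and 1.99% in non-coding transcripts. Zfp peaks thus held smaller shares of exonic and intronic peaks and larger shares of 5′ UTR, promoter, 3′ UTR and intergenic peaks, and these differences had the same sign in each of the 4 lists. Where the class was exon, 88.6% of Zfp peaks lay over an exon of the gene they were named for, while for the 3′ UTR class only 62.1% did so.

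**Figure D1:**
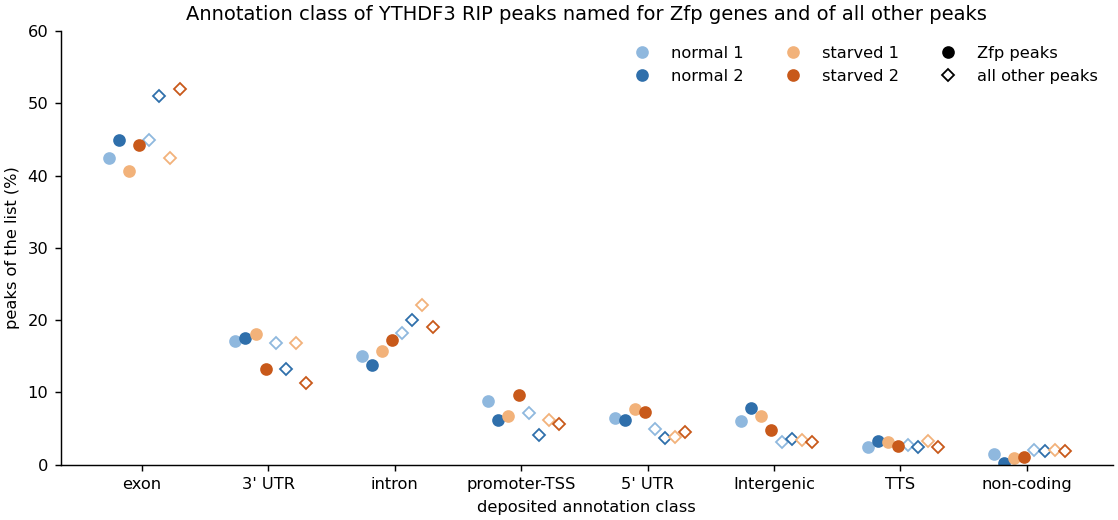
Share of the kept peaks of each list (vertical axis, %) that fell in each deposited annotation class (horizontal axis), for peaks named for Zfp genes (filled circles) and for all other peaks (open diamonds), with 1 color per list. Zfp peaks sit above the others in the 5′ UTR and intergenic classes and below them in the exon and intron classes in every list.

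In each list the enrichment of Zfp peaks was slightly above that of the rest. The median log2 IP/input fold was 1.76 ± 0.05 for Zfp peaks and 1.61 ± 0.03 for all other peaks (SD, n = 4 lists). The difference was 0.19 and 0.10 in the normal lists and 0.21 and 0.10 in the starved lists, a mean of 0.15 ± 0.06, with the same sign in 4 of 4 lists (exact permutation p = 0.125). Among peaks with a fold of at least 4 it was 0.03 (exact permutation p = 0.625), and with a floor of 1 input read 0.23. Zfp peaks were also shorter (374 against 405 bases in the mean of the list medians) and held fewer IP reads (81.1 against 113), so that the folds came from smaller peaks. Peaks of the 44 Zbtb, Zscan and Zkscan genes, 511 in all, had a median log2 fold of 1.8 ± 0.07, and the difference of Zfp from them was −0.04 ± 0.05 (exact permutation p = 0.25). By class, the medians for Zfp and other peaks were 1.65 and 1.51 in exons and 1.89 and 1.64 in 3′ UTRs, but 1.60 and 1.62 in 5′ UTRs and 1.92 and 1.91 between genes.

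In each list a larger share of exonic Zfp peaks than of other exonic peaks lay in the last exon. The share was 40.8% ± 2.86 of exon-annotated Zfp peaks and 10.8% ± 2.32 of all others, a difference of 30 ± 2.67 percentage points that ranged from 27.5 to 33.7 and was positive in 4 of 4 lists (exact permutation p = 0.125). The Zbtb, Zscan and Zkscan genes had 41.7% ± 5.63 and differed from Zfp by less than their spread (exact permutation p = 0.75). Gene structure differed in the same direction. The 122 Zfp genes with an exonic peak had a median of 5 exons, a last exon of 2868 bases and 80.5% of their coding sequence within it, whereas the 4728 other genes with an exonic peak had 9 exons, a last exon of 1744 bases and 11.5% of the coding sequence within it.

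**Figure D2:**
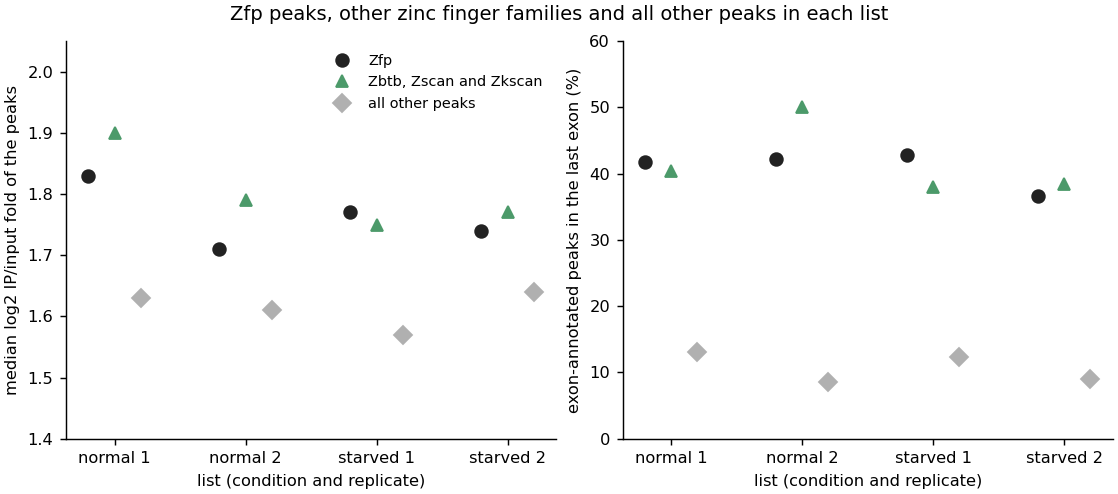
Median log2 IP/input fold of the kept peaks (left) and share of exon-annotated peaks that lie in the last exon (right, %) in each of the 4 lists on the horizontal axis, for Zfp peaks (circles), Zbtb, Zscan and Zkscan peaks (triangles) and all other peaks (diamonds). The fold axis starts at 1.4; Zfp and the other zinc finger families lie above the remaining peaks in both panels in every list.

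The transcript of each Zfp gene with at least 3 C2H2 fingers was then divided into 5′ UTR, coding sequence before the fingers, the row of fingers, coding sequence after them and 3′ UTR. Fingers took 41.7, 43.4, 36.7 and 41.7% of the transcript bases under peaks in the 77, 82, 109 and 91 genes of the lists, while they made up 28.9, 29.8, 30 and 31.2% of transcript length. The 3′ UTR showed the opposite, with 22.6, 27.7, 29.2 and 24.3% of the bases under peaks against 48.0, 46.1, 45.6 and 44.2% of length. The coding sequence before the fingers and the 5′ UTR were also covered above their share of length in every list, at 18.2 to 21.6% against 13.2 to 14.3% and at 8.17 to 11.1% against 5.80 to 6.29%. Coding sequence as a whole was covered to 33.5, 40.9, 31.3 and 36.9% in Zfp genes and to 24.1, 29.8, 25.1 and 30.3% in other genes with peaks. Coverage of the 3′ UTR was 11.2, 17.7, 15.9 and 15.2% in Zfp genes and 12.9, 14.2, 14.5 and 12.2% in other genes, without a common sign over the lists.

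**Figure D3:**
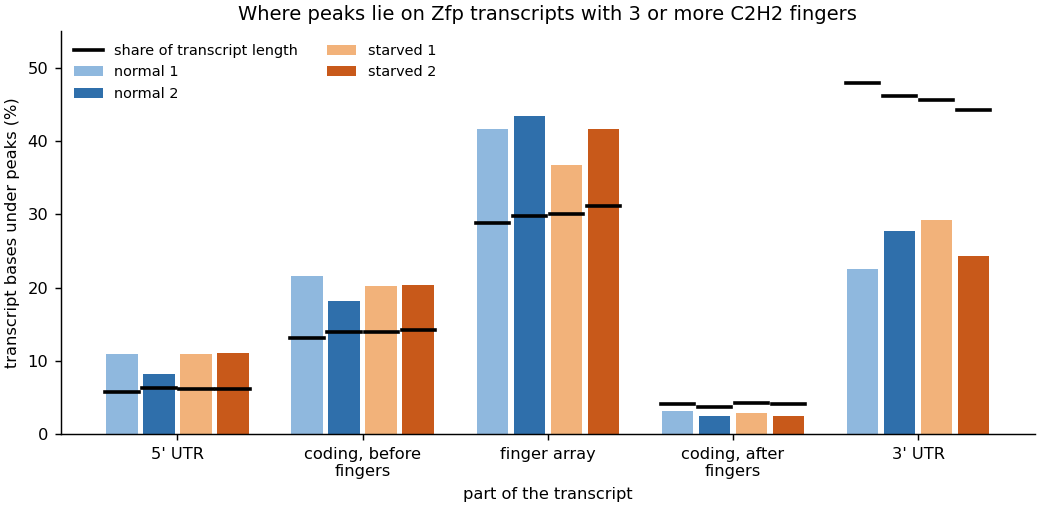
Share of the transcript bases under kept peaks (bars, %, 1 per list) in each part of Zfp transcripts with 3 or more C2H2 fingers, with the share of transcript length that the part makes up as a black line. Bars for the finger array reach 36.7 to 43.4% and stand above their lines in all 4 lists, and bars for the 3′ UTR stand below theirs.

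Coverage of the fingers by regions joined over the lists was mostly all or none. Neighbouring peaks that overlapped by at least 1 base in any list were joined into regions, and 47 genes with 3 or more fingers had a region that all 4 lists called over their own exons. In 22 of these genes the whole row of fingers lay in such regions, in 16 no finger base did, and the median was 90.1%. A region joins the peaks of all 4 lists, so a single list need not cover all of it. In the lists, 34.6, 44.6, 31.5 and 39.2% of finger bases lay under peaks, over the 77, 82, 109 and 91 genes counted above. The Zfp169 region of 2950 bases was covered over 1890, 2220, 1800 and 1740 bases. The whole row lay in joined regions in Zfp629 (19 fingers, 2136 bases), Zfp169 (17 fingers), Zfp46 (12 fingers), Zfp251 (11 fingers) and Zfp646 (27 fingers, 5211 bases). In Zfp26 (22 fingers) and Zfp871 (15 fingers) the regions lay in the 3′ UTR and reached no finger.

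The linker reads threonine, glycine, glutamate, lysine and proline. Of 110 such linkers in the Zfp genes with a region over their own exons in all 4 lists, 68 lay under those regions, in 21 genes. The codons of 1 linker each are shown for 4 of the 5 genes with most covered linkers (Zfp334, which ties with Zfp169 at 6, is left out). In each gene it is the linker nearest the middle of the covered ones. These codons are given because they are the repeated unit of the bound coding sequence. They are in the sense of the transcript, with the 15 linker bases in capitals and the neighbouring codons in lower case (mouse build mm10).
Zfp251 linker: aggatccacACGGGGGAGAAGCCCcacaag
Zfp46 linker: cggactcacACGGGCGAGAAGCCGtacgag
Zfp629 linker: gccacgcacACAGGTGAGAAGCCCtacaag
Zfp169 linker: aagacacacACGGGGGAAAAGCCCtatgcc
These lie at chr15:76853779-76853808 on the minus strand, chr4:136290862-136290891 on the plus strand, chr7:127611766-127611795 on the minus strand and chr13:48489862-48489891 on the minus strand, with 9, 7, 7 and 6 linkers covered in the gene. In the 68 linkers the last base of the lysine codon was G in 89.7% and that of the glutamate codon G in 85.3%. GGAC occurred 315 times in the coding sequence under these regions and 0 times within a linker, where linkers made up 1.5% of that sequence, and no choice of codons for the linker spells it.

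GGAC was counted on the transcribed strand of the named gene in the 200 bases around the center of each of the 120 Zfp regions called in all 4 lists. It was present in 72 (60%), beside 61.6% of the 6411 other regions of that kind, a difference of −1.60 percentage points. The longer GGACT, which contains it, was present in 26.7% and 21.7%, and in a 100-base window GGAC was present in 36.7% and 39.8%. The median G+C content of the 200 bases was 56.0% and 54.5%. A match to these letters is a description of sequence and does not show that the site is methylated.

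The next question was whether genes with a KRAB box were among those bound. A KRAB pattern was present in 187 of 362 Zfp proteins. A kept peak over an own exon was found for 53 of these 187 (28.3%) and for 96 of the 175 without it (54.9%), a difference between shares of genes that was not tested. Among the genes with own-exon peaks in every list, 16 of 65 (24.6%) had the pattern, while of the genes with no kept peak 121 of 190 (63.7%) had it. The pattern misses divergent boxes such as those of Zfp90, Zfp169 and Zfp473.

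Among peaks over an exon of the named gene, those of KRAB genes held fewer IP and input reads per kb, in each of the 4 lists. A larger share of them lay in the 3′ UTR, again in each list. The median input reads per kb of peak were 28.3, 63.6, 12.8 and 33.3 for KRAB genes and 58.7, 80.4, 38.5 and 75.7 for the others. The median IP reads per kb of peak were 172, 208, 184 and 200 for KRAB genes and 237, 232, 316 and 319 for the others, a log2 difference of −0.52 ± 0.27 that was negative in 4 of 4 lists (SD, n = 4; exact permutation p = 0.125). The 3′ UTR class held 25.7, 25.3, 19.6 and 20.8% of these KRAB peaks and 9.14, 10.3, 12.3 and 6.28% of the others, a difference of 13.4 ± 4.12 percentage points (exact permutation p = 0.125). The log2 fold was higher by 0.17 ± 0.14 on KRAB peaks, again in 4 of 4 lists (exact permutation p = 0.125). That fold difference came mostly from normal replicate 1 and starved replicate 2, and was small in the other lists. A p of 0.125 is the smallest that 4 lists allow. The lists share many genes, so the same sign in each is not independent evidence. The SD over lists does not measure the spread between genes, against which these differences were not tested.

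In all, 686 regions were named for Zfp genes, of 39979, and 364 of them (53.1%) appeared in a single list. The 120 regions called in all 4 lists (17.5%, beside 16.3% of all regions) belonged to 60 genes. Of these, 66 were exonic, 15 in 3′ UTRs, 11 in 5′ UTRs, 11 intronic and 10 at promoters, and 106 lay over an exon of the gene they were named for. The other 14 did not. Both regions named Zfp14 lay over exons of its neighbour Zfp568, the Zfp784 region over Zfp865, the Zfp212 region over Zfp282, 1 Zfp777 region over Zfp746, the Zfp112 region over Zfp180 and 3 regions named Zfp704 over Pag1, which encodes an adaptor protein of the cell membrane. A further 3 regions, named for Zfp236, were intergenic and had a near-identical copy elsewhere in the genome, so that their reads cannot be placed with certainty. Most regions were held by Zfp142 and Zfp282, with 6 each, and by Zfp217, Zfp275 and Zfp827, with 5 each. Most peaks over the 4 lists were held by Zfp236 with 46, Zfp451, a SUMO ligase, with 41, Zfp652 with 41, and Zfp282 and Zfp462 with 36 each.

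The second comparison set starved against normal medium. For each of the 120 regions the IP/input fold, taken from the peak of the region with the highest fold, was compared within replicate 1 and within replicate 2. The fold was higher after starvation in both replicates in 37 regions (30.8%, beside 27.3% of all 6531 regions), lower in both in 41 (34.2%, beside 25.4%) and opposite in 42. The median log2 change was −0.09 in replicate 1 and 0.01 in replicate 2, with SDs over the regions of 0.61 and 0.48, where over all regions it was −0.06 and 0.08. In 21 regions both starved folds were above both normal folds (17.5%, beside 14.7%), and in 24 both were below (20%, beside 13.7%). A fold with fewer than 3 input reads can be higher than it is listed. The counts were therefore repeated, a step added after seeing the data, over the 101 Zfp regions with no fold from 3 or fewer input reads. Of these, 19 had both starved folds above (18.8%, beside 15.1% of the 5758 such regions of all genes) and 18 had both below (17.8%, beside 12.6%). A concordant change, by 1.8-fold or more in replicates 1 and 2 alike, was reached by 0 Zfp regions in either direction, where 0.367% of all regions reached it upward and 0.352% downward. With changes centered on the median of all regions 3 Zfp regions reached it, a count that was not made over all regions. They were in Zfp142 upward, and in Zfp219, with a bound among its folds, and Zfp41 downward. A change of 1.8-fold in at least 1 replicate was reached by 31 Zfp regions (25.8%), beside 13.7% of all regions and 8 of the 38 Zbtb, Zscan and Zkscan regions. Of those 38, the fold was higher in both replicates in 23.7% and lower in both in 31.6%. Both starved folds were above both normal folds in 10.5% of the 38 and below in 13.2%.

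The IP/input ratio of the summed reads was also tested with edgeR across the 6531 regions, with the interaction of library kind and medium. At an adjusted p under 0.05 it called 0 Zfp regions higher and 0 lower, where 0.0153% and 0% of all regions were called. At an unadjusted p under 0.05 it gave 3 Zfp regions higher and 5 lower, beside 1.26% and 1.55% of all regions. DESeq2 called 0 Zfp regions after adjustment, beside 1 higher and 0 lower of all 6531 regions. At an unadjusted p under 0.05 DESeq2 gave 0 Zfp regions, beside 14 higher and 22 lower of all regions. The values that follow for single regions are therefore descriptions, and none of these regions passed the test after correction (edgeR adjusted p of 0.999 for each).

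Among the regions with the largest upward differences, the one over the transcription start of Zfp142 (chr1:74587411-74588320) had folds of 2.24 and 2.09 in normal medium and 3.87 and 4.17 in starved medium. Both starved lists were above both normal lists, by 0.79 and 1.00 on the log2 scale (edgeR log2 ratio 0.87 ± 0.29 SE, unadjusted p = 0.00656). The difference came with the input, which was 58.1 and 49.2 normalised reads per covered kb in normal and 22.9 and 33.0 in starved medium, while the IP was 46.7, 35.5, 32.1 and 43.8. The same region also covers an exon of Bcs1l, which encodes a mitochondrial chaperone for complex III, and the counting is not stated to use strand. The other 5 Zfp142 regions called in all lists were annotated as exonic, and their fold differed by −0.77 to 0.39 in replicate 1.

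The 5′ UTR region of Zfp275 (chrX:73342471-73342970) had folds of 2.90 and 2.18 in normal and 4.37 and 5.06 in starved medium (edgeR log2 ratio 0.89 ± 0.30 SE, unadjusted p = 0.00749). That of Zfp251 (chr15:76870121-76871530) had 2.47, 2.82, 4.53 and 4.01 (0.52 ± 0.24 SE, unadjusted p = 0.0482). In both, the 2 starved folds were above the 2 normal ones. Of the 3 exonic regions of Zfp275, 2 had the same order, with folds of 2.47, 2.82, 6.8 and 3.0 and of 2.39, 2.48, 4.13 and 3.27, while its large 3′ UTR region, with 2.67, 3.79, 2.39 and 3.12, did not. The finger region of Zfp251 had the opposite order, with 3.34, 3.10, 2.84 and 2.99. The intronic Zfp697 region (chr3:98410331-98412040) had 3.06, 3.67, 5.00 and 6.00, of which the last 3 are bounds from peaks with 2 or fewer input reads, and no order of the media is shown by them, and its summed reads gave a log2 ratio of 0.12 ± 0.28 SE; 59.3% of its length has a near-identical copy.

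Among the downward differences, both 3′ UTR regions of Zfp41 had higher folds in normal medium. The region at chr15:75617911-75619770 had folds of 7.98 and 7.0 in normal and 3.46 and 4.53 in starved medium (edgeR log2 ratio −0.89 ± 0.32 SE, unadjusted p = 0.0130). The region at chr15:75623441-75625400 had 19.0 and 7.83 in normal and 8.36 and 4.56 in starved medium, where normal replicate 2 lay below starved replicate 1 (−0.82 ± 0.39 SE, unadjusted p = 0.0473). The inputs of the first were 13 and 25 reads in normal and 81 and 84 in starved medium, and the IP reads 121, 147, 632 and 482. Both IP and input were thus higher after starvation, the input by more, and neither passed its test (edgeR adjusted p = 0.258 for IP and 0.127 for input).

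The intronic region of Zfp219, a cofactor of Sox9 (chr14:52009501-52010460), had folds of 7.26, 3.85, 3.14 and 2.22. That of normal replicate 1 came from 27 IP and 3 input reads. That of starved replicate 1 is a bound, from 22 IP and 0 input reads. The starved fold of replicate 1 can thus be higher than listed, and no order of the media is shown for this region. The region downstream of Zfp652, a repressor that works with CBFA2T3 (chr11:95768641-95772340), had 7.13, 6.50, 4.38 and 3.36. The intronic Zfp687 region (chr3:95014511-95015560) had 7.60, 6.33, 4.99 and 3.74, the second from 3 or fewer input reads. In the last 2 both normal folds were above both starved folds. The edgeR log2 ratios of the summed reads were −0.88 ± 0.58 in Zfp219, −0.31 ± 0.33 in Zfp652 and −0.51 ± 0.42 in Zfp687 (SE). The other regions with an unadjusted p under 0.05 were the 5′ UTR of Zfp365, a centrosomal protein, with folds of 5.55, 3.53, 2.81 and 2.57, and 2 of the regions named Zfp704 that lie over Pag1.

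The GGAC nearest the center of the regions ranked first in each direction by the listed folds is shown, in capitals, with 30 bases in the sense of the transcript (mm10).
Zfp142 start region: gcgcatctctgctGGACtcgggcgtctcag
Zfp219 intron region: agtgccttcagcgGGACaccctctcctgcc
The first lies at chr1:74587801-74587830 and the second at chr14:52009911-52009940, both on the minus strand, at 50 and 55 bases from the center of regions that hold 5 and 6 GGAC.

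**Figure D4:**
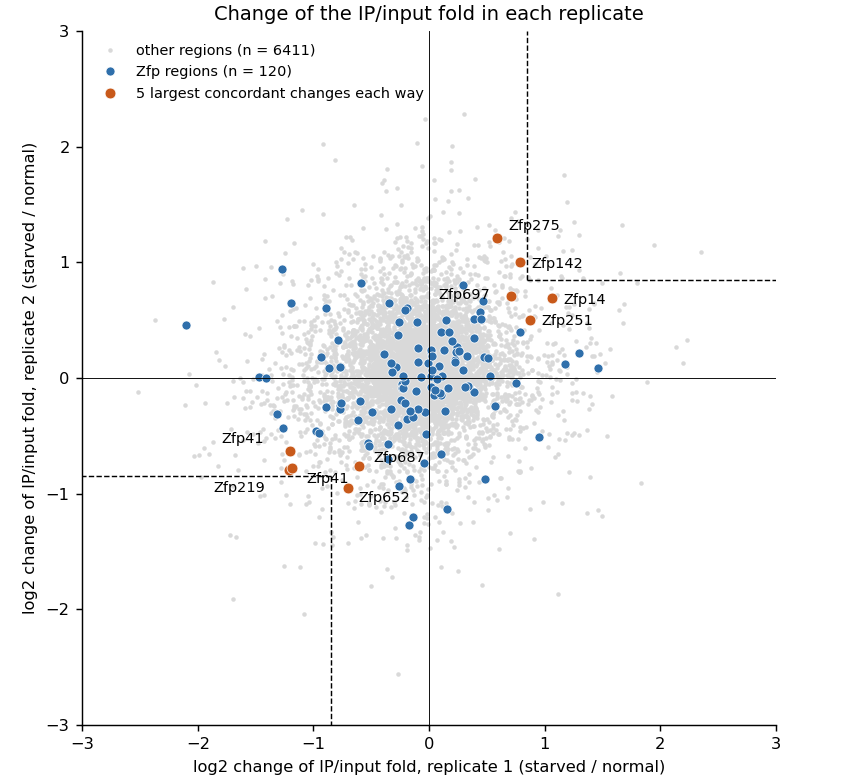
Log2 change of the IP/input fold, starved over normal, in replicate 1 (horizontal) and replicate 2 (vertical). The 120 Zfp regions are blue, with the 5 largest concordant changes of the listed folds each way in orange. Those of Zfp697, Zfp14, Zfp219 and Zfp687 include folds from 3 or fewer input reads. The 6411 other regions called in all 4 lists are grey. Dashed corners mark 1.8-fold in both replicates, which 0 Zfp regions reached; 2 other regions lie beyond the axes.

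IP and input levels were next tested apart, as reads per covered base, since a fold can stay level while both move. In cells in bulk, fewer cells with an RNA and less of it per cell cannot be told apart. Of the 120 Zfp regions edgeR called 1 higher and 1 lower in the IP (beside 0.184% and 0.888% of all regions) and 1 higher and 0 lower in the input (beside 0.276% and 0.812%). At an unadjusted p under 0.05 there were 7 higher and 12 lower in the IP (beside 4.93% and 5.44% of all regions), and 8 higher and 12 lower in the input (beside 3.97% and 4.41%).

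The region that rose in both was the exon of Zfp503 (chr14:21984251-21986870), a zinc finger repressor of the NET family that works with Groucho proteins. Its IP reads were 4024 and 3750 in normal and 15838 and 11224 in starved medium, or 236, 176, 530 and 425 normalised reads per covered kb. Its input reads were 1097, 1446, 2447 and 2415, or 222, 197, 526 and 430 after normalisation. Both starved lists lay above both normal lists in IP and input. The edgeR log2 change was 1.22 ± 0.21 SE in the IP (adjusted p = 0.0451) and 1.16 ± 0.22 SE in the input (adjusted p = 0.0368), while the fold was 2.96, 2.59, 2.77 and 3.10 and its edgeR log2 ratio 0.05 ± 0.17 SE. The 5′ UTR region of the gene had changes of 0.89 ± 0.23 and 0.80 ± 0.27 that did not pass the test (edgeR adjusted p = 0.168 and 0.356).

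Zfp703, the other member of that family, had the most IP reads per kb of all Zfp genes, 2739 and 2757 in normal and 9242 and 6915 in starved medium, and Zfp503 came next with 1550, 1457, 5278 and 3985. In the single Zfp703 region (chr8:26976971-26981550) the normalised IP was 395, 313, 766 and 594 and the input 402, 314, 794 and 594. Again the starved lists lay above the normal ones in both, with log2 changes of 0.95 ± 0.20 SE and 0.92 ± 0.21 SE that missed the threshold in edgeR (adjusted p = 0.0864 and 0.0940) and passed it in DESeq2. The folds of 3.23, 3.68, 3.35 and 3.43 overlapped between the media (edgeR log2 ratio 0.01 ± 0.16 SE). The next by IP reads per kb were Zfp784 at 627 or more, Zfp275 at 625 or more and Zfp319 at 574 or more in each list, and their ranges overlap between the genes. Of the 10 peaks named Zfp784 only 4 lay over its own exons, and its region in all 4 lists lies over Zfp865.

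The GGAC nearest the center of the NET-family regions is given because these regions held most of the Zfp reads per base, with the same marking as above.
Zfp703 exon region: gaggtagcggcggGGACtcggctcacggtg
Zfp503 exon region: ctagtttgtgccgGGACccatactgcctca
Zfp503 5′ UTR region: ccgcgcaccgcggGGACactcccgcagtct
They lie at chr8:26979103-26979132 on the plus strand and at chr14:21985529-21985558 and chr14:21987749-21987778 on the minus strand (mm10), in regions that hold 18, 18 and 9 GGAC.

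The region that fell in the IP is named for Zfp14 but lies over an exon of its neighbour Zfp568, a KRAB protein that represses a placental promoter of Igf2 (chr7:30026491-30028240). Its IP reads were 200 and 536 in normal and 44 and 108 in starved medium, or 37.5, 40.8, 11.1 and 14.5 after normalisation, so that the groups did not overlap (edgeR log2 change −1.60 ± 0.26 SE, adjusted p = 0.0380). Its input reads were 56, 192, 1 and 17, a log2 difference of −2.43 ± 0.58 SE (edgeR adjusted p = 0.111). The folds were 3.0, 2.79, 6.28 and 4.50, the third a bound from a single input read. A second region over Zfp568 (chr7:30022181-30024360) had normalised IP values of 37.3, 63.7, 9.95 and 23.9 (log2 difference −1.59 ± 0.45 SE, edgeR adjusted p = 0.226). Neither Zfp call in the IP, nor that in the input, was made by edgeR when starved replicate 1 was left out. Without the adjustment for covered length edgeR called 0 Zfp regions and 0 of all 6531 regions, in the IP and in the input.

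**Figure D5:**
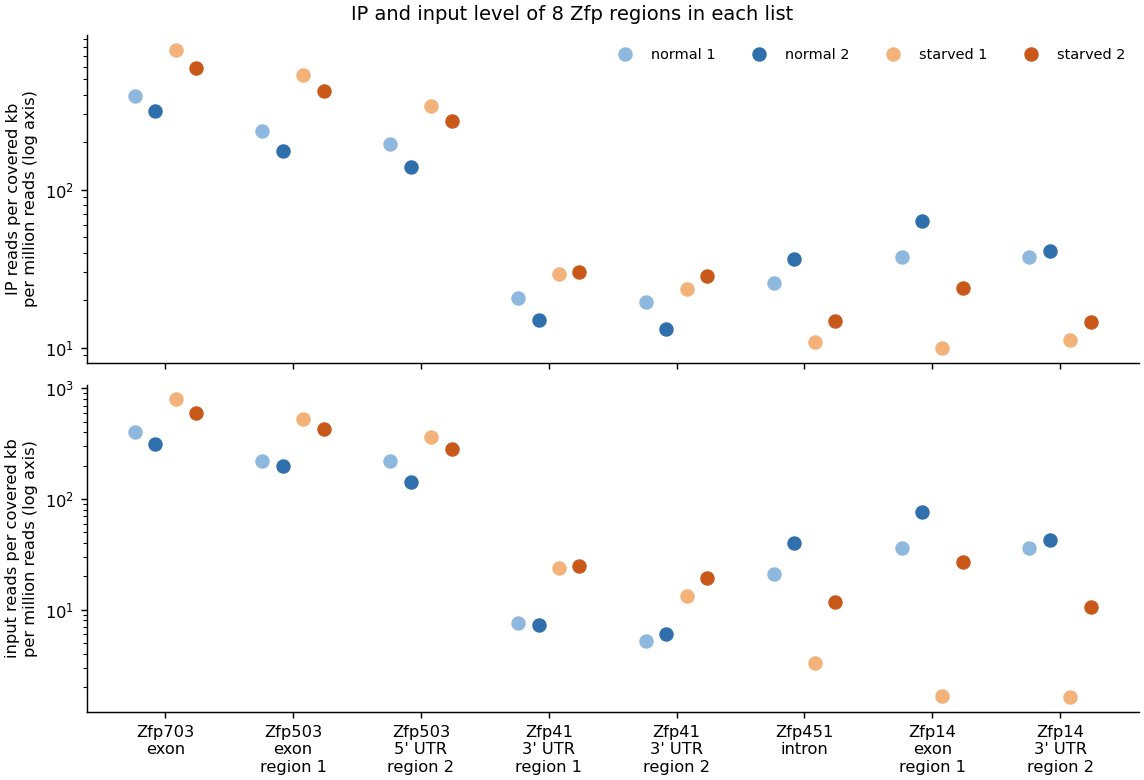
IP reads (top) and input reads (bottom) per covered kb, scaled to the reads of a library in the 6531 regions (per 1 M reads), on log axes, in each of the 4 lists (1 color each) for 8 Zfp regions. In Zfp703 and Zfp503 both starved lists lie above both normal lists in IP and input, and in the regions named Zfp14 both lie below.

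Among 22 Zfp genes listed as regulators of transcription, 18 had a kept peak, beside 47.3% of protein-coding Zfp genes. Of the 22, 12 had a region in all 4 lists, with 29 regions in all. Zfp503 and Zfp703 are among the 12, although the finger pattern found 0 C2H2 fingers in either. The fold was higher after starvation in both replicates in 6 of the 29 (20.7%, beside 27.3% of all regions) and lower in both in 8 (27.6%, beside 25.4%), with median log2 changes of −0.18 and 0.05. Zfp217, a subunit of the LSD1 and CoREST co-repressor that has also been described to bind the m6A writer METTL3, had 5 regions. Its coding regions of 1840 and 2050 bases had folds of 3.20, 3.08, 4.55 and 3.48 and of 3.49, 3.03, 2.89 and 3.91. The first was higher in both replicates and the second was not, so that neighbouring regions of 1 gene did not share a direction.

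Zfp281, a regulator of pluripotency genes, had folds of 2.16, 2.19, 3.0 and 2.48, with both starved lists above the normal ones (edgeR log2 ratio 0.26 ± 0.29 SE). Zfp462, linked to heterochromatin through G9a and GLP, had folds of 2.49, 2.52, 3.09 and 2.39 in its largest region. Zfp521, an antagonist of the B cell factor Ebf1, had 3.60, 3.89, 3.07 and 3.67 in its finger exon. In the latter genes the media overlapped.

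Zfp516, which activates Ucp1 in brown fat, had 2 regions at its start. One had folds of 9.11, 3.19, 8.52 and 2.65, from 7, 21, 15 and 36 input reads, and was higher in replicate 1 of each medium, while the other, with 4.51, 4.79, 3.0 and 8.44, was higher in replicate 2. Zfp318, needed for IgD expression in B cells, had 4.40, 2.33, 3.86 and 3.54, and Zfp263 had 4.57, 2.95, 3.64 and 3.23, both with the replicate 1 fold above that of replicate 2 in each medium. The exonic regions of Zfp652 had 4.38, 2.65, 3.51 and 2.74 and 5.03, 2.28, 2.70 and 3.46, and did not share an order.

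Zfp282, in whose protein the KRAB pattern was found although its list was drawn up for genes without the box, had 6 regions that differed in direction. The first had folds of 4.89, 7.05, 4.36 and 3.85, with both starved folds below both normal folds (edgeR log2 ratio −0.52 ± 0.33 SE). In 2 others, with 2.66, 3.06, 3.13 and 3.58 and with 2.72, 2.96, 3.33 and 3.10, both starved folds were above (0.19 ± 0.33 and 0.15 ± 0.35 SE), and in the remaining 3 the media overlapped. The other 6 regulators with a peak were Zfp148, Zfp143, Zfp335, Zfp64, Zfp24 and Zfp146, and Zfp384, Zfp423, Zfp131 and Zfp711 had none.

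Of 10 Zfp genes whose proteins act on RNA or ribosomes, 4 had a kept peak, beside 47.3% of protein-coding Zfp genes, and 0 a region in all 4 lists. They were Zfp598, which ubiquitinates collided ribosomes, with 1 peak of 48 IP reads in normal replicate 1, Zfp326, of the DBIRD complex of transcription and splicing, with 4 peaks of which none lay over its own exons, Zfp106, an RNA-binding protein, with 6 peaks in the starved lists alone, and Zfp638, a cofactor of adipocyte differentiation, with 3 peaks in the starved lists alone. Of 9 KRAB genes with a described target, 4 had a kept peak (Zfp568, Zfp708, Zfp445 and Zfp30), beside 66 of the 187 Zfp genes with the KRAB pattern. The imprint regulator Zfp57 had none. Zfp445, which also maintains imprints, was the one with regions in all 4 lists. Its folds were 2.89, 3.21, 3.98 and 5.09 in one coding region and 2.99, 2.59, 3.05 and 2.95 in the other, higher after starvation within both replicates in each (edgeR log2 ratios 0.55 ± 0.51 and 0.07 ± 0.26 SE).

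Of 12 co-repressors through which KRAB proteins act, 6 had a kept peak (Setdb1, Cbx5, Chd3, Chd4, Uhrf1 and Dnmt1) and Trim28 had none. A share over all genes was not computed beside this count. Of the 12, 2 had a peak in every list, namely Setdb1 and Dnmt1. Setdb1 had 3, 4, 9 and 7 peaks over its own exons, and its 1 region in all 4 lists was lower after starvation in both replicates by less than 1.8-fold. The 4 peaks named Dnmt1 did not lie over its exons.

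Lastly, regions called in both lists of one medium and in neither list of the other were counted. There were 28 Zfp regions in the starved lists alone (4.08%, beside 4.70% of all 39979 regions) and 10 in the normal lists alone (1.46%, beside 1.30%), while 18 were found in both replicate 1 lists alone (2.62%, beside 2.76%) and 34 in both replicate 2 lists alone (4.96%, beside 7.40%). The starved lists were deeper in IP reads, which moves with the number of peaks called, and its part in these counts was not tested. With most IP reads in the starved lists were a 5′ UTR region of Zfp266 (232 and 197 reads), an exon of Zfp462 (188 and 227), an exon of Zfp638 (350 and 43), an exon of Zfp777 (260 and 133) and the 5′ UTR of Zfp180 (169 and 176). Of these genes Zfp638 had 0 peaks in the normal lists, and the other 4 had peaks elsewhere. In the normal lists alone were an exon of Zfp213 (126 and 98 reads), a region near Zfp369 (50 and 147), an exon of Zfp787 (49 and 60) and the 3′ UTRs of Zfp235 (41 and 50) and Zfp866 (34 and 50), and each of these genes had peaks elsewhere in the starved lists.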

How the data were processed

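Per the labels and the study's methods, IP and input RNA were made into directional libraries and sequenced in pairs, reads were trimmed with Trimmomatic, aligned to mm10 with TopHat2 2.0.13, and peaks of each IP against its input were called with diffReps and annotated with HOMER (submitters' processing notes name HOMER, TopHat2 and mm 10). The deposited values per peak are counts in 1 list and, in the other 3, counts multiplied by 1 factor per library (signal), with the deposited p-value of the caller; no lists were pooled. Reads were recovered from the spacing of the signal values. Peaks were kept at an IP/input ratio of at least 2 and a p-value below 0.0001, and joined into regions where they overlapped by 1 base. Folds used a floor of 3 input reads. The IP/input ratio and the IP and input reads per covered base were tested with edgeR 4.0.16 (quasi-likelihood, Benjamini-Hochberg over 6531 regions) in R 4.3.3, with DESeq2 1.42.0 as an alternative; the edgeR script was tested on simulated data. Within-list differences were tested with an exact sign-flip permutation over 4 lists, 2-sided. Exons, fingers and sequences came from GENCODE and the mm10 genome, and copies from blastn 2.17.0. Counting intervals were not used, and PCR copies were not removed by molecular identifiers.

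Named genes were those of 3 role lists, the 5 with most IP reads per kb, the 5 with most peaks, the 5 regions with the largest concordant change each way among 119 with at least 20 IP reads in each list, regions passing an edgeR test, and the 5 condition-only regions each way with most reads; genes named for finger coverage, for regions over a neighbour or for an unadjusted p were chosen after their values were seen. The members and lists were chosen with earlier results of these data known. Alternatives were another fold cutoff, centring, stricter peaks, own-exon peaks, other overlaps and floors, no length adjustment, and leaving out each replicate.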

Additional observations from a re-analysis of the deposited data

How the results depend on the processing

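Of 59 alternative values computed for the 8 results, 41 were labelled the same, 18 moved and 0 reversed. That for regions with no fold at the floor of input reads (0 changed) was added after seeing the data. A count was labelled the same if it was equal or within a factor of 1.5, and the GGAC difference if it stayed in its confidence interval. The fold and last-exon differences were labelled by sign alone, and only these could be labelled reversed. The fold difference of 0.03 is thus among those labelled the same. The count of Zfp regions changed 1.8-fold in both replicates was 0, became 3 when changes were centered on the median of all regions (Zfp142 higher; Zfp219, with bounds for folds, and Zfp41 lower) and 9 at a cutoff of 1.5, and was 10 to 22 when 1 replicate was used. These alternative counts were not made over all regions. For IP reads per covered base edgeR called 2 Zfp regions and DESeq2 6. Without the length offset edgeR called 0 Zfp regions and 0 of all regions. For input reads the calls were 1, then 2 with DESeq2, and 0 without the offset, beside 0 of all regions. The calls for IP and for input changed with the list left out, and none remained without starved replicate 1. In those fits the lone remaining list of a medium was assumed to vary like the others. Over all 6531 regions DESeq2 called 67 higher and 113 lower in the IP and 42 and 83 in the input. With a replicate block the IP calls were 16 (6 higher and 10 lower, beside 278 and 286 of all regions). The input calls were 11 (5 higher and 6 lower, beside 218 and 221 of all regions), and the ratio still gave 0. Same-numbered lists deviated together (r = 0.45 for IP and 0.29 for input over 6531 regions), but with 2 pairs the numbers are not shown to pair the samples. Zfp genes with a region in all 4 lists were 60, and 5 at a fold of at least 4. The ratio gave 0 calls in every alternative run. The fold difference of Zfp peaks was 0.13 to 0.17 with 1 list left out, 0.03 at a fold of at least 4 (exact permutation p = 0.625) and 0.23 with a floor of 1 input read, and the last-exon difference was 28.8 to 30.9 with 1 list left out. The inputs limit the precision of the folds, with a median of 10 to 25 reads under a Zfp peak.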
